A study of Mus musculus with 12 samples.

Results

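The comparison described here set the terminal ileum of mice labelled Rag1-/- against that of mice labelled Tcra-/- and separate, with 3 libraries on each side of the 12 libraries in the series. The 6 libraries were chosen by the genotype and housing in the labels, with no measured value used, and all 15866 genes that passed a filter on low counts were compared. The study measured messenger RNA by stranded sequencing, with 1 library per mouse and 3 mice in each of 4 groups. All mice were obtained from 1 supplier, Taconic, and kept free of specific pathogens. The Rag1-/- mice carry a disrupted Rag1 gene, and the labels give neither their age nor their cage mates. The Tcra-/- mice of the comparison carry a disrupted Tcra gene and are labelled as separate, here taken as housed without the wild type mice of the next group. The remaining groups, used only as reference levels, were Tcra-/- mice that had shared a cage with as many wild type C57BL/6 males of like age for 4 to 8 weeks (co-housed), and wild type C57BL/6 mice. Per the labels, the study itself compared Rag1-/- with wild type mice and co-housed with separately housed Tcra-/- mice, so the comparison given here crosses its 2 designs. Genotype, housing and whatever colony or cage the mice came from therefore change together between the 2 sides and cannot be told apart. Each replicate is a different mouse, but replicates may share a cage, and p-values then measure the spread between these mice only.

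Rag1 encodes a subunit of the recombinase that assembles antigen receptor genes, and without it neither B cells nor T cells of any kind mature, while innate lymphoid cells and other leukocytes remain. Tcra encodes the alpha chain of the antigen receptor of conventional T cells, so its loss removes those cells and leaves B cells and gamma delta T cells. In the ileum, IL-22 made by innate lymphoid cells and T cells acts on epithelial cells through the transcription factor STAT3 and raises antimicrobial lectins, serum amyloid A and the fucose coat of the surface, while absorptive cells digest and take up sugar, peptides and fat.

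Levels are given in CPM, counts per 1000000 reads of the library after scaling by the trimmed mean of M-values (TMM), and the 3 values of a group follow the replicate numbers. A difference is a log2 fold change of Rag1-/- over separately housed Tcra-/- mice ± its standard error (SE), positive where the Rag1-/- mice were higher. A gene was called where its adjusted p was under 0.01, from edgeR's quasi-likelihood test over all genes with Benjamini-Hochberg adjustment. "Tcra-/- mice" without a further word are the separately housed ones. Totals ran from 42717064 to 50581616 counts in the Rag1-/- libraries and from 40294353 to 44574864 in the Tcra-/- libraries. The Pearson correlation of log2 CPM across genes was 0.9906 to 0.9921 within either group, over 6 pairs of libraries, and 0.9499 to 0.9622 over the 9 pairs between them. Rag1 itself had 236 reads in the Rag1-/- mice and 0 in the other 9 mice. The deleted part of the gene is not given, so these reads do not check the label, and the genotype names used here are those of the labels. Tcra has no value here, so that label was not checked either. The B cell gene Faim3 had 0 reads in the Rag1-/- mice and 669 in the Tcra-/- mice. Markers of the ileum were present in all 6 mice: Fabp6, the bile acid binding protein of ileal absorptive cells, was at 2688, 3238 and 3463 CPM in the Rag1-/- mice and 3550.2, 3438 and 3626 CPM in the Tcra-/- mice, with overlapping groups. Of the colon markers, Car1 and Aqp8 had at most 4 reads in any of the 6 libraries, and Hoxb13 had 0.

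Of the 15866 genes, 5721 (36.1%) were called, 2852 (18.0%) higher and 2869 (18.1%) lower in the Rag1-/- mice. Calls past 2-fold numbered 661 (4.17%) higher and 977 (6.16%) lower. The levels of the 3 Rag1-/- mice and the 3 Tcra-/- mice did not overlap for 9533 genes (60.1%). Of the 5721 called genes, 5716 were without overlap, so a lack of overlap stated below for a called gene adds little to its call. The split between directions depends on the scaling: with library size alone, and no TMM factor, 1709 genes were called higher and 4264 lower, and the median difference over all genes moved from -0.04 to -0.20. The lectin gene Reg3b alone took 5.54 to 5.82% of the counts in the Rag1-/- libraries and 0.260 to 0.662% in the Tcra-/- libraries. The shares above are the background against which the counts of each gene group below are to be read. Between Rag1-/- and co-housed Tcra-/- mice, by contrast, 459 genes (2.89%) were called, 54 higher and 405 lower. That comparison shares the Rag1-/- libraries with the present one, and its values are set beside each gene group only as a description. Gene groups were read from 47 lists of 879 different genes, of which 819 were tested and 42 of these stand in more than 1 list. Reads are not split between genes that overlap: of the genes named below, Cry2, Mylk, Noxa1, Ostb, Scd2 and Cd74 share exonic bases with another gene (D930015M05Rik, E130310I04Rik, Entpd8, Rasl12, Mir5114 and Mir5107), so some of their reads may be from that gene.

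The 12 largest rises among called genes with a mean log2 CPM above 1 and no overlap of the groups were headed by Retnlb, an antimicrobial protein of goblet cells. Retnlb was at 78.2, 61.3 and 70.6 CPM in the Rag1-/- mice and at 0, 0.0932 and 0 CPM in the Tcra-/- mice. Only 1 Tcra-/- mouse had any read of it, and without that mouse (replicate 2) the fitted difference of 11.06 ± 0.49 became 14.56. Cfhr2, a complement factor H related protein, was at 14.8, 8.46 and 18.4 CPM against 0.0219, 0 and 0 CPM, which rests on 1 read among the Tcra-/- libraries, and the ratio of pooled levels was 1881 (95% exact counting interval 337 to 74330.0). The rest of the 12 were Gml (8.82), the serum amyloid genes Saa1 and Saa2, the glycosyltransferase gene B3galt5, Hemt1 (8.47), Ppef1 (8.21), Lrg1, the fucosyltransferase gene Fut2, Trim10 (a 128-fold rise) and 1600029D21Rik (6.95), with the log2 difference given here or below. Without Tcra-/- replicate 1 the values were 10.11 for Gml and 8.11, on the same log2 scale, for Trim10, and without Tcra-/- replicate 3 that of Hemt1 was 9.37. 1600029D21Rik shares exonic bases with 2310014F07Rik, so its reads may belong to either gene. Of the 12 largest falls, 9 were genes of B cells, antibody or the T cell receptor complex, among them Faim3, Cd79a, Ms4a1, Igj, Fcer2a, Cd3e, Tnfrsf13c and Cr2. The remaining 3 falls were Lct, which encodes lactase, the sugar transporter gene Slc5a4a and BC089597 (-5.60, and -6.24 without Rag1-/- replicate 1).

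**Figure D1:**
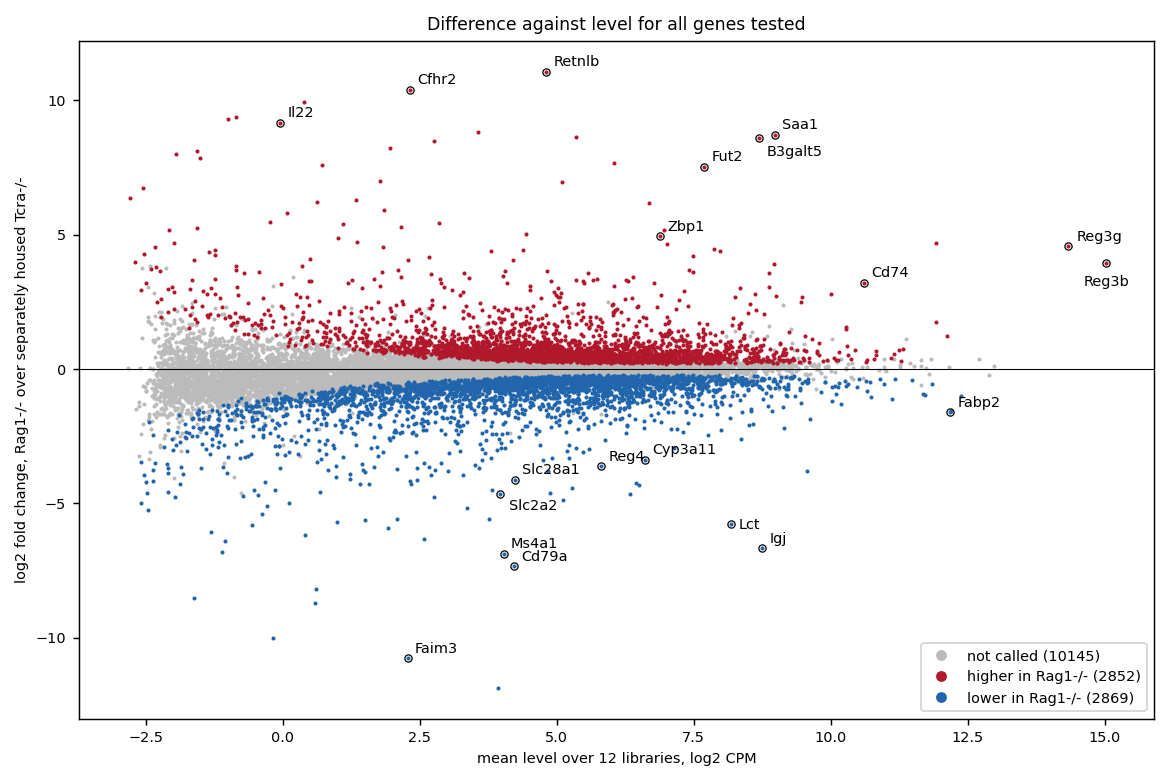
Log2 fold change of Rag1-/- over separately housed Tcra-/- mice against the mean log2 CPM over 12 libraries, 1 point per gene tested, red where called higher (2852), blue where called lower (2869) and grey where not called, with 20 genes of the text circled and named. The B cell genes lie lowest, Retnlb and Cfhr2 highest, and Reg3b and Reg3g are the circled genes at the highest levels.

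B cell genes were lower in the Rag1-/- mice as a group. Of 19 tested, 18 were called lower and 0 higher, with a median difference of -3.50 against -0.04 over all genes, and the sum of their levels was 85.2 to 92.3 CPM in the Rag1-/- mice and 201 to 259.7 CPM in the Tcra-/- mice. Most of that sum in the Rag1-/- mice is Ralgps2, a gene that other cells express too, and the other 18 genes came to 14.6 to 17.0 CPM against 93.3 to 158 CPM. Faim3, the Fc receptor for IgM, was at 0 in all 3 Rag1-/- mice and at 3.36, 5.94 and 5.71 CPM in the Tcra-/- mice, which is at least 217-fold lower against a floor of 3 counts over the group (adjusted p = 4.11e-08). The groups were separate, with no read on the Rag1-/- side. Ms4a1, which encodes the surface protein CD20, was at 0.0490, 0.0474 and 0.128 CPM against 7.11, 12.8 and 8.16 CPM (-6.87 ± 0.44). Cd79a and Cd79b, the signal chains of the B cell receptor, fell by different amounts: Cd79a differed by -7.34 ± 0.52, and Cd79b, at 1.84, 1.21 and 1.20 against 8.36, 12.9 and 11.2 CPM, by -2.94 ± 0.19. Both were lower in each Rag1-/- mouse than in any Tcra-/- mouse. Cr2, a complement receptor of B cells and follicular dendritic cells, differed by -5.56 ± 0.41, Fcer2a, a low affinity receptor for IgE, by -6.30 ± 0.37, and Tnfrsf13c, the receptor for the B cell survival factor BAFF, by -5.59 ± 0.38. These falls rest on few Rag1-/- reads, and they were larger without single mice: -8.37 for Cd79a and -7.51 for Ms4a1 without Rag1-/- replicate 3, and -6.21 for Cr2 and -6.58 for Tnfrsf13c without Rag1-/- replicate 1. Even so, the Tcra-/- mice were below the wild type mice in Ms4a1, which was at 39.5, 23.4 and 32.4 CPM in wild type and 24.7, 26.6 and 21.1 CPM in co-housed Tcra-/- mice. In bulk tissue, fewer cells of a type and less RNA per cell cannot be told apart.

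Genes of plasma cells and antibody transport moved in both directions, 4 higher and 5 lower of 13. Igj, the joining chain of secreted IgA and IgM, was at 0.0245, 0.166 and 0.384 CPM in the Rag1-/- mice, 22.2, 22.3 and 16.7 CPM in the Tcra-/- mice, 302, 420.2 and 182 CPM in the co-housed and 1229, 1265 and 1722 CPM in the wild type mice. The separately housed Tcra-/- mice thus lay far above the Rag1-/- mice and far below both other groups, in every mouse. The difference was -6.65 ± 0.56 (adjusted p = 1.36e-05), or -7.68 without Rag1-/- replicate 3, and -2.004 for Irf4 and -2.81 for Pou2af1, both transcription factors of B and plasma cells. The called rises were genes that epithelial cells also express: Pigr, the receptor that carries IgA across the epithelium (2414, 2930.4 and 2794 against 1769, 1651 and 1521 CPM, 0.72 ± 0.10), Xbp1 (1.15) and Prdm1 (1.51), regulators of secretory and epithelial cells, and Fkbp11 (1.31), a chaperone of secretory cells.

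T cell genes differed less. Of 28 tested, 5 (17.9%) were called lower, near the 18.1% of all genes, and 0 higher. The sums over the list, 37.7 to 46.0 CPM in the Rag1-/- and 47.7 to 51.6 CPM in the Tcra-/- mice, did not overlap but lay near each other. The 5 called were Cd3e, Cd3d, Cd247, Cd2 and Skap1, which encode parts of the receptor complex, an adhesion receptor and an adaptor. Cd3e was at 0, 0.0474 and 0 CPM in the Rag1-/- mice, from 2 reads in all, and at 0.790, 1.05 and 1.42 CPM in the Tcra-/- mice, and the ratio of pooled levels was 70.6 (95% exact counting interval 19.2 to 589) in favour of the Tcra-/- mice. Cd3d was at 0.122, 0.0948 and 0.128 against 1.10, 1.51 and 0.744 CPM (-3.24 ± 0.54, adjusted p = 0.000200). Neither gene overlapped between the groups, and both were lower in the Tcra-/- mice than in wild type, where Cd3e was at 6.84, 12.7 and 9.95 CPM. Cd4, at 2.47, 2.77 and 3.61 against 2.90, 2.66 and 2.67 CPM, and Cd8a, at 1.81, 1.54 and 2.43 against 2.83, 2.77 and 3.17 CPM, did not pass the test (adjusted p = 0.720 and 0.0633). Against the co-housed Tcra-/- mice, by comparison, 16 of the T cell genes were called lower in the Rag1-/- mice.

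Genes of cytotoxic and intraepithelial lymphocytes went the other way, with 9 of 25 called higher in the Rag1-/- mice and 0 lower. Some of these calls were near the threshold: 4 were called higher with library size alone, 3 without Tcra-/- replicate 3, 5 without Tcra-/- replicate 1 and 4 without Tcra-/- replicate 2 or Rag1-/- replicate 1 or 3. The sum over the list was 81.0 to 109 CPM in the Rag1-/- mice, 35.5 to 41.8 CPM in the Tcra-/- mice and 251 to 409 CPM in wild type. Gzma, a granule protease of killer cells, was at 23.3, 23.7 and 34.0 CPM in the Rag1-/- and 3.38, 2.87 and 2.06 CPM in the Tcra-/- mice. The groups did not overlap, and the difference was 3.29 ± 0.57 (adjusted p = 0.00146). Wild type mice were higher than both, at 80.3, 139 and 133 CPM. Il2rb, a receptor chain for IL-2 and IL-15, was at 4.26, 3.79 and 4.97 against 1.62, 1.65 and 1.82 CPM (1.35 ± 0.17), and Klrk1, the activating receptor NKG2D, at 2.79, 2.58 and 2.35 against 1.03, 1.21 and 0.831 CPM (1.33 ± 0.25). Both receptors stood higher in each Rag1-/- mouse than in any Tcra-/- mouse. Gzmb (10.1, 8.84 and 13.1 against 1.14, 1.65 and 0.722 CPM, 3.19 ± 0.66) was called with all 12 libraries, but not without Rag1-/- replicate 3 or any 1 of the Tcra-/- mice (adjusted p from 0.0104 to 0.0188). Itgae, the integrin that holds lymphocytes in the epithelium (0.93 ± 0.25), lost its call without any 1 of the 6 mice, and Klrd1 (1.16 ± 0.30) without any 1 of 4 of them. Of the gamma delta T cell list, 0 of 11 were called higher and 3 lower, among them Blk (-3.09 ± 0.25), which B cells also express, and Maf, which myeloid cells also express.

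Genes of group 3 innate lymphoid cells and their cytokines were called in both directions. Of 19 tested, 2 were called higher, Il22 and the natural cytotoxicity receptor gene Ncr1, and 7 lower. Ncr1 kept its call only without Rag1-/- replicate 2 among the fits that leave out 1 mouse, and 4 genes were lower without Rag1-/- replicate 2 or Tcra-/- replicate 3. Il22 was at 1.49, 2.32 and 1.17 CPM in the Rag1-/- mice, from 214 reads, and at 0 in all 3 Tcra-/- mice, which is at least 74.4-fold higher (adjusted p = 3.37e-07). Co-housed Tcra-/- mice had 2.08, 2.51 and 1.49 CPM and wild type mice 0.135, 0.0906 and 0.0671 CPM, so the co-housed and Rag1-/- mice stood high and the other 2 groups low. Il23r, the receptor chain through which IL-23 induces IL-22, was at 0.857, 0.474 and 0.406 against 0.219, 0.373 and 0.306 CPM and missed the threshold (adjusted p = 0.0523). Ccr6, a chemokine receptor of lymphoid tissue inducer cells and B cells, was at 0.0980, 0.142 and 0.107 against 0.922, 1.91 and 1.47 CPM (-3.60 ± 0.45). Ltb, the lymphotoxin chain that builds lymphoid follicles, was at 1.35, 1.54 and 1.47 against 2.70, 4.54 and 3.59 CPM (-1.31 ± 0.23), and Id2, a regulator of innate lymphoid and epithelial cells, at 25.1, 21.3 and 28.1 against 59.0, 59.1 and 62.1 CPM (-1.27 ± 0.09). These 3 genes were lower in every Rag1-/- mouse. Ccr6 and Ltb are also B cell genes, and the B cell sums above move with them, but the part B cells have in these values was not tested. Of the 12 genes of lymphoid stroma and follicle epithelium, 2 were called higher and 5 lower, among the latter Gp2, the bacterial receptor of M cells (0.392, 0.711 and 0.704 against 2.57, 3.42 and 3.52 CPM, -2.38 ± 0.37), and Spib, a transcription factor of M cells and B cells (-1.53 ± 0.22).

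**Figure D2:**
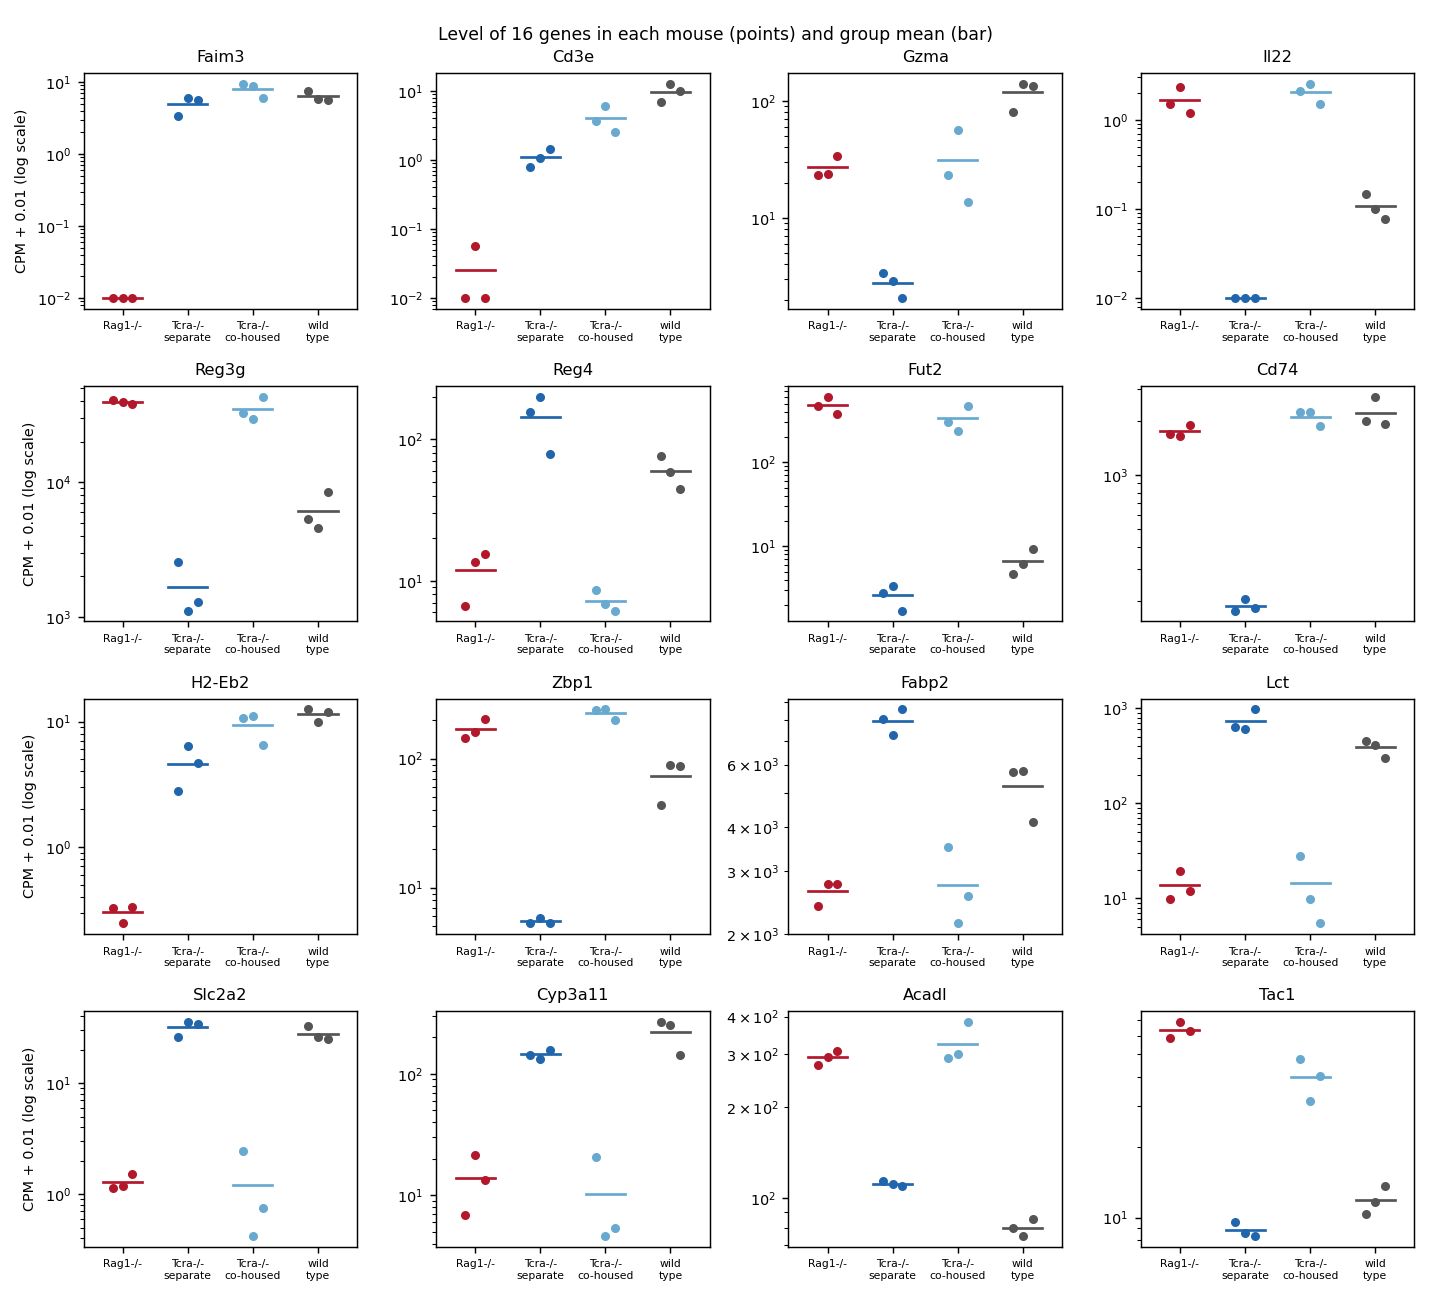
Levels of 16 genes in CPM + 0.01 on a log scale, 1 point per mouse and a bar at the group mean, for the Rag1-/-, separately housed Tcra-/-, co-housed Tcra-/- and wild type mice. Faim3 is at 0 only in the Rag1-/- mice and Il22 only in the separately housed Tcra-/- mice, while Reg3g, Fut2, Lct and Slc2a2 put the Rag1-/- mice beside the co-housed Tcra-/- mice.

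The receptor and signal genes of the IL-22 path moved in opposite directions. Il22ra1, the epithelial receptor chain for IL-22, was lower in the Rag1-/- mice at 167, 187 and 188 CPM against 305, 319 and 341 CPM (-0.83 ± 0.11, adjusted p = 1.16e-05), and so was Il10rb, its partner chain (-0.37 ± 0.07). Stat3 was higher by less than 2-fold (212, 241 and 202 against 154, 136 and 171 CPM, 0.51 ± 0.09). Socs3, the feedback inhibitor that STAT3 induces, was at 333, 465 and 230.2 CPM against 32.0, 19.3 and 28.5 CPM, without overlap (3.69 ± 0.32, adjusted p = 1.44e-05). In all, 4 of 17 genes of this path were called higher and 4 lower (23.5% each, against 18.0% and 18.1% of all genes). Il18, an epithelial cytokine, was among the rises (106, 104 and 121 against 24.1, 18.0 and 22.3 CPM, 2.36 ± 0.16).

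All 6 Reg lectins tested were called, 4 higher and 2 lower. Reg3g, a secreted lectin that kills Gram positive bacteria, was at 40411, 39244 and 38152 CPM in the Rag1-/- mice and 2579.8, 1118 and 1291 CPM in the Tcra-/- mice (4.56 ± 0.39, adjusted p = 1.10e-05). Reg3b, its close relative, was at 60902, 59355 and 61423 against 6336, 2437 and 3024 CPM (3.94 ± 0.40). The Rag1-/- mice lay within a narrow band for both, the Tcra-/- mice spread more, and replicate 1 was highest among the latter. Reg3a was at 611, 552 and 530.2 against 196, 196 and 201 CPM (1.51 ± 0.26) and Reg3d, at a low level, rose by 1.55. Reg4, a lectin of endocrine and goblet cells, moved the other way, at 6.66, 13.5 and 15.4 CPM in the Rag1-/- mice and 155, 201 and 79.0 CPM in the Tcra-/- mice (-3.61 ± 0.44). Reg1 also fell, at 1.54, 1.398 and 1.39 against 3.42, 2.59 and 2.62 CPM, though its call was lost without Rag1-/- replicate 2 or 3 or Tcra-/- replicate 1, which leaves 1 of the lectins lower. Near-identical relatives, as in the Reg3 and serum amyloid families, may exchange reads, and how reads that fit several places were counted is not given.

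Serum amyloid genes, acute phase proteins that carry retinol and lipid, rose in 3 of 4 cases. Saa1 was at 989, 1102 and 1021 CPM against 4.34, 1.51 and 1.51 CPM (8.72 ± 0.59, adjusted p = 4.30e-06), Saa2 at 85.1, 84.8 and 82.6 against 0.285, 0.140 and 0.197 CPM (8.64 ± 0.49) and Saa3, a form made by epithelium and macrophages, at 5.61, 6.35 and 6.19 against 0.373, 0.303 and 0.109 CPM (4.52 ± 0.31). None of the 3 genes overlapped between the groups. Without Tcra-/- replicate 1 the difference of Saa1 was 9.42. Wild type mice, at 149, 142 and 261 CPM of Saa1, were between the groups. Among acute phase and STAT3 induced genes, 14 of 22 were called higher and 1 lower. Lrg1, a secreted glycoprotein, was at 175, 172 and 113 against 1.32, 0.513 and 0.394 CPM (7.68 ± 0.71), Tat, the tyrosine aminotransferase of the liver response to glucocorticoids, at 205, 364 and 145 against 4.74, 1.91 and 3.11 CPM (6.19 ± 0.48), and Tifa, an adaptor that senses bacterial sugars, at 523, 667 and 419.9 against 103, 59.0 and 87.6 CPM (2.69 ± 0.22). Each of these was higher in all 3 Rag1-/- mice, and Lrg1 differed by 8.40 without Tcra-/- replicate 1. Serpina10, an inhibitor of clotting factors, and Cfi, a complement protease, rose by 5.43 ± 0.24 and 5.03 ± 0.39, and Cfb, another complement protease, was the call in the other direction (-0.32 ± 0.07).

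The enzymes that build the fucose coat showed some of the largest differences. Fut2, which adds the terminal fucose of the epithelial surface, was at 467, 605 and 373 CPM against 2.79, 3.35 and 1.71 CPM (7.53 ± 0.45, adjusted p = 1.74e-06). B3galt5, which extends the chains that Fut2 acts on, was at 844, 1146 and 823 against 3.31, 2.28 and 1.64 CPM (8.60 ± 0.28, adjusted p = 1.98e-09), and B3gnt7, another extending enzyme, at 312, 391 and 274 against 19.4, 16.3 and 17.5 CPM (4.20 ± 0.19). The groups stood more than 10-fold apart in each of the 3 genes. Gmds, the first enzyme of the route to the fucose donor, rose by 2.18 ± 0.13, and Chst4, a sulfotransferase of mucins and vessel glycans, by 3.22 ± 0.13. Of 26 glycan enzymes, 15 were called higher and 6 lower, and the falls were led by sialyl- and galactosaminyltransferases: St3gal6 (-1.45 ± 0.13), St6gal1 (-1.51 ± 0.18), St3gal1 (-0.93 ± 0.11) and B4galnt1 (-0.66 ± 0.09). St6gal1 is also a B cell gene, and it was called lower than in the co-housed mice as well.

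Oxidases and nitric oxide synthase were called higher in 9 of 12 cases and lower in 0. Nos2, the inducible nitric oxide synthase, was at 834, 971 and 729 against 62.0, 35.1 and 73.4 CPM (3.89 ± 0.26, adjusted p = 1.03e-06). Duox2, the peroxide generating oxidase of the epithelium, was at 860.0, 1002 and 873 against 60.8, 137 and 32.5 CPM (3.57 ± 0.46), and Duoxa2, the factor that matures it, at 469, 638 and 409 against 16.2, 50.9 and 5.53 CPM (4.39 ± 0.70). The Tcra-/- mice differed among themselves by several fold in these 2 genes, with replicate 2 highest, and without it the differences became 4.29 and 5.54. With only the 6 libraries fitted, neither passed the threshold (adjusted p = 0.0109 and 0.0206). The units of the epithelial oxidase NOX1 rose by less: Nox1 by 2.30 ± 0.30, Noxa1 by 0.96 ± 0.13 and Noxo1 by 0.91 ± 0.08.

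Promoter sequence was examined for a STAT motif and an interferon motif. RefSeq windows from 250 bases before to 50 after the gene start (GRCm38.p6, matched by symbol for 11065 of the 15866 genes) were searched on both strands for the STAT motif TTCNNNGAA, which reads the same on either strand, and for the interferon motif, GAAA, any 2 bases and GAAA again, which the other strand reads as TTTC, any 2 bases and TTTC. The STAT motif was in 8.47% of all 27025 windows, in 7.18% of those of the tested genes, in 12.1% of those of genes called higher by over 2-fold and in 6.5% of those of genes called lower by over 2-fold. The windows of Reg3b, B3galt5 and Socs3 are shown as examples, chosen because these 3 genes rose and hold the motif, in capitals, with up to 40 bases on each side, written 5′ to 3′ on the strand of the gene.
Reg3b: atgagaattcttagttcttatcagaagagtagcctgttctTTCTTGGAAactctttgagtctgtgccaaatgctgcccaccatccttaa
B3galt5: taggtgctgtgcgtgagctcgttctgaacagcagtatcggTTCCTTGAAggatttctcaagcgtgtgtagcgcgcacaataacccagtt
Socs3: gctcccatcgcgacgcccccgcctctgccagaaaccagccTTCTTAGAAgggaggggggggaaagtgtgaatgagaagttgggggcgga
They lie at chr6:78370716-78370804 on the plus strand, chr16:96235751-96235839 on the plus strand and chr11:117969472-117969560 on the minus strand. The motif starts 129 bases before the gene start in Reg3b, 10 bases before it in B3galt5 and 154 bases before it in Socs3. A match is a description of the letters in this window and is no evidence that a factor binds there. The STAT motif was in 2 of 6 windows of the Reg list, 0 of 4 of serum amyloid, 1 of 9 of the oxidases, 2 of 19 of the glycan enzymes and 4 of 15 of the acute phase list, and Reg3g, Saa1, Saa2, Lrg1, Tat, Duox2 and Duoxa2 had no match. It was not particular to these lists: 8 of 20 windows of the interferon gamma response held it. So did 3 of 11 of the Paneth cell list and 4 of 16 of the group 3 innate lymphoid cell list, but 0 of 26 of lipid absorption.

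Most interferon response genes were higher in the Rag1-/- mice than in the Tcra-/- mice. Of 26 genes of the type I interferon response, 23 were called higher and 1 lower, with a median difference of 1.87. Their sum was 1159 to 2134 CPM in the Rag1-/- mice, 625 to 681 CPM in the Tcra-/- mice and 889 to 1093 CPM in wild type. Zbp1, a sensor of viral nucleic acid, was at 145, 161 and 203 CPM against 5.35, 5.85 and 5.29 CPM (4.95 ± 0.30, adjusted p = 8.18e-07). Mx2, an antiviral GTPase, was at 13.2, 18.0 and 18.1 against 2.61, 2.12 and 1.97 CPM (2.88 ± 0.21), and Oas2, an enzyme that activates RNA decay, at 13.4, 30.8 and 42.6 against 2.30, 2.94 and 2.73 CPM (3.45 ± 0.38). The Tcra-/- mice were tightly grouped in all 3 genes, while the Rag1-/- mice spread about 3-fold in Oas2, with replicate 3 highest. Oas1a, Oas1g and Xaf1 rose by 2.22 ± 0.19, 2.46 ± 0.25 and 1.85 ± 0.24. Isg15, a ubiquitin-like protein, was at 23.5, 44.8 and 80.7 against 7.86, 7.31 and 8.27 CPM (2.67 ± 0.40), and with only the 6 libraries fitted its adjusted p was 0.015. Cmpk2, a nucleotide kinase that the same signal induces, was the 1 call in the other direction (27.4, 41.3 and 50.9 against 75.1, 79.5 and 85.6 CPM, -1.005 ± 0.22), and that call was lost with only the 6 libraries fitted and without Rag1-/- replicate 2 or Tcra-/- replicate 2 or 3. The interferon motif was in 3.49% of all promoter windows and in 11 of the 19 windows found for this list (57.9%). Windows of Isg15 and Oas1a are shown for the motif in capitals, where matches run into each other.
Isg15: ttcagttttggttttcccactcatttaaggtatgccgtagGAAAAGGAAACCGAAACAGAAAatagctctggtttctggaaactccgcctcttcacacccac
Oas1a: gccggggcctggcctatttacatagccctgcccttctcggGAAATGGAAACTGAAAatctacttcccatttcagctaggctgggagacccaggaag
They lie at chr4:156200835-156200936 and chr5:120907490-120907585, both on the minus strand, with matches that start 78, 72 and 66 bases before the gene start in Isg15 and 20 and 14 bases before it in Oas1a. Of all windows, 139 held both motifs, and in 21 of them a match of each overlapped.

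Of 29 genes of the interferon gamma response, 18 were called higher and 2 lower. Their sum was 2086 to 2428 CPM in the Rag1-/- mice, 1281 to 1365 CPM in the Tcra-/- mice and 2115 to 2920 CPM in wild type. The Rag1-/- and wild type sums overlapped, and against wild type 0 of these genes were called higher and 4 lower in the Rag1-/- mice. Ifng itself was at 0.269, 0.0474 and 0.149 CPM against 0.0439, 0 and 0.0437 CPM, at most 11 reads in a library, and was not called (adjusted p = 0.0673). The subunits of the immunoproteasome, which cuts peptides for class I molecules, rose: Psmb8 was at 164, 149.7 and 179 against 30.8, 27.5 and 25.9 CPM (2.55 ± 0.17) and Psmb9 at 68.8, 64.1 and 73.3 against 17.8, 14.96 and 14.6 CPM (2.12 ± 0.18). Tap1, the peptide pump of the same path, was at 98.2, 109 and 124 against 23.8, 22.6 and 21.1 CPM (2.29 ± 0.21). No mouse of either group reached the other in these genes. Cxcl9, which draws T cells, was at 15.2, 11.5 and 18.9 against 3.77, 2.47 and 3.24 CPM (2.27 ± 0.35), while Cxcl11, which binds the same receptor, was lower at 0.465, 0.853 and 0.832 against 3.77, 2.89 and 2.60 CPM (-2.10 ± 0.39). Ido1, which degrades tryptophan, was at 19.0, 20.1 and 21.5 against 20.6, 18.0 and 21.0 CPM and was not called (adjusted p = 0.965), although both groups were below wild type, at 76.2, 129 and 91.4 CPM.

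All 11 MHC class II genes were called. Of them, 7 rose and 4 fell, with presenting chains and chains of the peptide editor in both directions. Cd74, the invariant chain, was at 1687, 1661 and 1899.8 CPM in the Rag1-/- mice and 177, 205 and 183 CPM in the Tcra-/- mice (3.22 ± 0.13, adjusted p = 2.14e-10), and H2-Aa, a presenting chain, at 971, 952 and 1142 against 158, 159 and 129.8 CPM (2.78 ± 0.19). H2-DMb1, a chain of the peptide editor, was at 52.3, 60.1 and 62.2 against 5.99, 6.24 and 5.40 CPM (3.31 ± 0.13). Ciita, the transcription factor that switches on the class II genes, was at 41.9, 32.1 and 42.0 against 7.50, 9.99 and 8.22 CPM (2.17 ± 0.18). All 4 genes were higher in each Rag1-/- mouse than in any Tcra-/- mouse. Wild type mice were at 2007, 2733 and 1914 CPM of Cd74. Those that fell were H2-Eb2, H2-Ob, H2-DMb2 and H2-Oa. H2-Ob, a chain of the inhibitor of peptide editing that B cells make, was at 2.01, 0.806 and 1.13 against 8.27, 12.6 and 10.8 CPM (-3.01 ± 0.30), and H2-Eb2 at 0.318, 0.237 and 0.320 against 2.76, 6.36 and 4.64 CPM (-3.96 ± 0.36). These 4 genes fell beside the B cell sums given above, and the part of B cells was not tested. H2-Oa shares exonic bases with BC051537.

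Necroptosis and pyroptosis genes were called higher in 13 of 24 cases and lower in 2. Ripk3, the kinase that starts necroptosis, was at 107, 105 and 99.1 against 26.6, 21.9 and 23.4 CPM (2.11 ± 0.09, adjusted p = 2.14e-10), and Mlkl, the pore protein that it activates, at 18.9, 20.7 and 25.9 against 5.66, 4.38 and 3.92 CPM (2.23 ± 0.17). Aim2, a sensor of DNA, rose by 1.36 ± 0.11, and Pycard, the inflammasome adaptor, by 0.91 ± 0.08. The falls were the sensors Naip5, which binds flagellin (172, 191 and 202 against 371, 367 and 418 CPM, -1.03 ± 0.09), and Nlrp6 (-0.38 ± 0.08). Myeloid genes were called higher in 8 of 25 and lower in 0, with the integrin Itgam at 25.1, 29.8 and 26.9 against 13.6, 10.2 and 11.2 CPM (1.23 ± 0.11) and Cd14, a receptor for bacterial lipopolysaccharide, higher by 1.000 ± 0.15. Chemokine genes were called higher in 7 (24.1%) and lower in 4 (13.8%) of 29, against 18.0% and 18.1% of all genes, and 4 were higher without Tcra-/- replicate 3. Cxcl5, which draws neutrophils, was at 2.35, 3.03 and 1.39 against 0, 0.0466 and 0.0656 CPM (5.81 ± 0.59, and 6.46 without Tcra-/- replicate 3), and Ccr2, the receptor of inflammatory monocytes, at 8.38, 4.55 and 8.43 against 2.19, 1.33 and 1.47 CPM (2.10 ± 0.34). The falls included Cxcr5, which guides B cells into follicles (-3.51 ± 0.35), and Ccl25, the small intestinal attractant of lymphocytes (382, 432 and 405 against 538, 488 and 519 CPM, -0.34 ± 0.08), whose call was lost without Rag1-/- replicate 1 or Tcra-/- replicate 1.

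**Figure D3:**
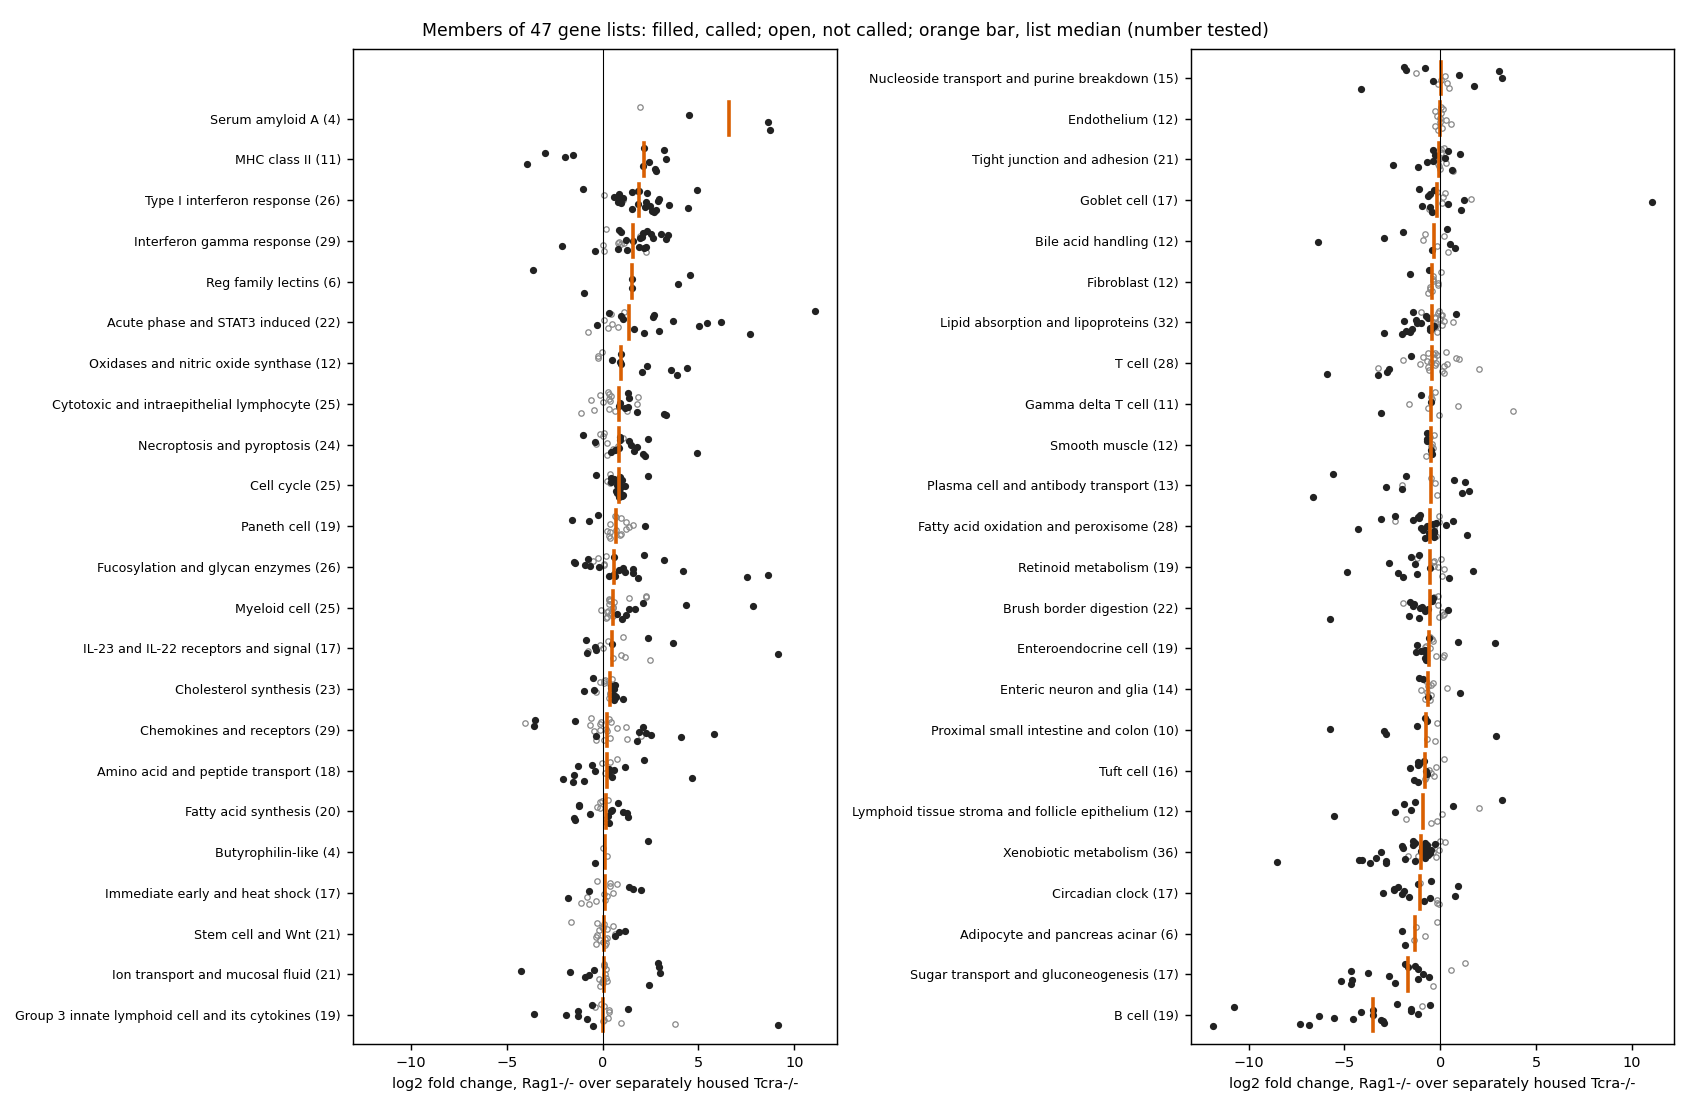
Log2 fold change of Rag1-/- over separately housed Tcra-/- mice for every tested member of 47 gene lists, filled where called and open where not, with an orange bar at the list median and the number tested in brackets. Lists of interferon, lectin and serum amyloid genes have their medians to the right of 0, and those of B cells, sugar transport, the clock and xenobiotic metabolism to the left.

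Genes of sugar transport and of brush border digestion were called lower more often than higher in the Rag1-/- mice. Of 17 genes of sugar transport and gluconeogenesis, 14 were called lower and 0 higher, with a median of -1.66. Slc2a2, the exit transporter GLUT2 for glucose and fructose, was at 1.13, 1.18 and 1.52 CPM against 26.1, 35.6 and 34.4 CPM (-4.64 ± 0.42, adjusted p = 1.29e-05). Fbp1, an enzyme of gluconeogenesis, was at 2.55, 3.29 and 3.76 against 20.7, 21.9 and 18.7 CPM (-2.67 ± 0.16), Khk, which phosphorylates fructose, at 76.0, 85.3 and 85.0 against 179, 182 and 198 CPM (-1.18 ± 0.10), and Slc5a4a, a sodium dependent sugar carrier, at 0.710, 0.521 and 0.896 against 18.9, 27.2 and 31.6 CPM (-5.18 ± 0.35). None of these groups overlapped. Slc5a1, the main entry transporter for glucose, was at 1009, 1142 and 1335 against 1292, 1538 and 1649 CPM, with overlapping values, and was not called (adjusted p = 0.0275, and 0.0016 with library size alone). Among brush border enzymes 13 of 22 were called lower and 1 higher. Lct was at 9.85, 19.4 and 11.9 CPM against 639, 610.2 and 978 CPM, a 54.1-fold difference (-5.76 ± 0.64, adjusted p = 0.000108), and wild type mice were at 456, 413 and 299.6 CPM. Treh, which splits trehalose, differed by -1.62 ± 0.13, Alpi, the intestinal alkaline phosphatase, by -1.36 ± 0.13, and Xpnpep2, an aminopeptidase, by -1.41 ± 0.13. Sis, the sucrase, differed by -1.11 ± 0.26, with a call that was lost without any 1 of 5 mice. Mep1b, a peptidase, was the call in the rising direction, and it too was lost without single mice.

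Genes of fat uptake and breakdown fell as well. Of 32 genes of lipid absorption, 16 were called lower and 1 higher. Cd36, a fatty acid uptake protein, was at 9.26, 9.10 and 11.5 against 35.4, 40.5 and 42.2 CPM (-1.98 ± 0.11, adjusted p = 2.03e-09). Fabp2, the intestinal fatty acid binding protein and among the most abundant messengers here, was at 2392, 2763 and 2765 against 8079, 7269 and 8599 CPM (-1.60 ± 0.17), and its liver form Fabp1 at 6.98, 15.1 and 13.8 against 115, 75.2 and 87.2 CPM (-2.94 ± 0.40). Each fell without overlap. Apoa4, an apolipoprotein of chylomicrons, differed by -1.20 ± 0.23, Cidec and Plin2, which coat lipid droplets, by -1.97 ± 0.22 and -1.24 ± 0.11. Oxidation of fatty acids gave 19 calls lower and 3 higher of 28. Cat, the peroxisomal catalase, was at 59.5, 70.8 and 71.1 against 316, 319.8 and 390.0 CPM (-2.35 ± 0.10), Ppara, the nuclear receptor that induces these genes, at 28.6, 29.2 and 27.4 against 65.4, 82.3 and 83.9 CPM (-1.44 ± 0.11), and Acaa2, a mitochondrial thiolase, at 56.8, 58.6 and 69.0 against 128, 124 and 125 CPM (-1.03 ± 0.10). Acadl, the long chain dehydrogenase of the same path, went against the list, at 277, 295 and 307 CPM in the Rag1-/- mice and 114, 111 and 110.0 CPM in the Tcra-/- mice (1.39 ± 0.09, adjusted p = 1.01e-08).

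Synthesis of fatty acids and cholesterol did not follow the breakdown. Of 20 genes of fatty acid synthesis, 8 were called higher and 5 lower, and of 23 of cholesterol synthesis, 10 and 3. With library size alone the first list had 4 higher, and the cholesterol list 6 higher and 5 lower. Without Rag1-/- replicate 1 they had 5 and 6 higher, without Tcra-/- replicate 1 the first had 4, and without Tcra-/- replicate 2 the cholesterol list had 6. Elovl6, an elongase, was at 203, 179 and 159 against 75.5, 71.2 and 73.2 CPM (1.30 ± 0.08), and Sqle, a rate setting enzyme of cholesterol synthesis, at 324, 257 and 251 against 130.1, 121 and 145 CPM (1.07 ± 0.11). Both were higher in every Rag1-/- mouse. The desaturases parted: Scd1 was at 8.79, 7.84 and 12.3 against 25.7, 25.8 and 29.7 CPM (-1.49 ± 0.24) and Scd2 at 332, 231 and 201 against 93.6, 100.1 and 117 CPM (1.30 ± 0.27), the latter without a call when Tcra-/- replicate 1 or 2 was left out. Fasn, the fatty acid synthase, differed by 0.35 ± 0.09, and its call was lost with library size alone and without replicate 1 of either group.

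Enzymes that clear foreign compounds were called lower in 28 of 36 cases and higher in 0. Cyp3a11, a major drug oxidase, was at 6.91, 21.7 and 13.3 CPM against 143, 132 and 158 CPM (-3.37 ± 0.63, adjusted p = 0.00226, and 0.0116 without Rag1-/- replicate 3). Ces1g, a carboxylesterase, was at 0.955, 1.28 and 0.768 against 6.63, 8.76 and 10.04 CPM (-3.08 ± 0.29), Abcc2, an efflux pump, at 32.1, 52.4 and 54.5 against 315, 387 and 373 CPM (-2.95 ± 0.23), and Gsta4, a glutathione transferase, at 6.59, 8.20 and 6.87 against 28.9, 26.1 and 29.3 CPM (-1.96 ± 0.17). All 4 genes were lower in every Rag1-/- mouse. Retinoid genes fell in 9 and rose in 2 of 19 cases. Lrat, which stores retinol as ester, was at 12.5, 8.48 and 11.3 against 47.2, 50.99 and 53.2 CPM (-2.23 ± 0.13), Rbp2, the carrier of retinol in absorptive cells, at 156, 184 and 214 against 436, 409 and 458 CPM (-1.24 ± 0.14), and Bcmo1, which splits carotene, at 3.43, 3.84 and 5.57 against 15.8, 16.7 and 17.6 CPM (-1.96 ± 0.19). Isx, a repressor of carotene uptake, was higher at 248, 258 and 255 against 183, 182 and 199 CPM (0.43 ± 0.07), and so was the retinol dehydrogenase gene Rdh16 (46.6, 46.6 and 47.1 against 16.8, 11.6 and 14.3 CPM, 1.72 ± 0.12). In bile acid handling, 3 of 12 were called higher and 4 lower, and the 2 chains of the export carrier parted, Osta at -0.44 ± 0.09 and Ostb at 0.78 ± 0.09. Slc10a2, the bile acid importer of the ileum, was at 260.3, 221 and 312 against 196, 214 and 199 CPM (adjusted p = 0.0488, and 0.00682 with only the 6 libraries fitted), and Fgf15, the hormone that the bile acid receptor induces, at 23.0, 25.5 and 69.8 against 36.9, 81.0 and 102 CPM (adjusted p = 0.170). Nr0b2, a target of that receptor, had 2 reads in the Rag1-/- mice and 1.03, 1.65 and 1.86 CPM in the Tcra-/- mice, a ratio of 98.2 (95% exact counting interval 26.8 to 816) in favour of the latter.

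Carriers of amino acids and nucleosides moved both ways. Of 18 amino acid and peptide carriers, 7 were called higher and 7 lower. Slc6a14, a broad carrier of neutral and basic amino acids, was at 258, 234 and 289.9 CPM against 13.2, 9.43 and 8.29 CPM (4.66 ± 0.20, adjusted p = 7.29e-09). Slc6a20a, a proline carrier, was at 32.6, 41.6 and 38.0 against 152, 165 and 162 CPM (-2.09 ± 0.15), and Slc15a1, the peptide carrier PEPT1, at 257, 295 and 316 against 764, 831 and 977 CPM (-1.57 ± 0.12). The first was higher and the other two lower in every Rag1-/- mouse. Of 15 genes of nucleoside transport and breakdown, 4 were called higher and 5 lower. The carrier gene Slc28a3 was at 58.0, 64.2 and 55.4 against 17.7, 17.6 and 16.5 CPM (1.78 ± 0.09) and Slc28a1 at 1.67, 3.37 and 5.14 against 49.6, 75.6 and 52.7 CPM (-4.11 ± 0.51). Upp1, which breaks down uridine, rose (456, 423 and 593 against 57.8, 58.8 and 61.9 CPM, 3.04 ± 0.23), and Nt5e, the ectonucleotidase CD73, fell (31.0, 26.4 and 52.3 against 136, 122 and 143 CPM, -1.87 ± 0.31). Of 21 ion and fluid genes 4 (19.0%) were called higher, near the 18.0% of all genes. They were led by Car4, a membrane carbonic anhydrase (566, 586 and 656 against 75.7, 85.1 and 63.1 CPM, 3.01 ± 0.23), and Slc9a3, the sodium exchanger NHE3 (2.43 ± 0.25). The water channel gene Aqp3 was among the 5 lower, at 0.784, 0.474 and 0.832 against 11.2, 13.1 and 16.5 CPM (-4.28 ± 0.29). Slc40a1, the iron exporter ferroportin, rose by 2.92 ± 0.12, and it was also called higher than in the co-housed Tcra-/- mice, by 0.55 ± 0.12.

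Among secretory cells, tuft cell genes were lower, 9 of 16 called and 0 higher, although 4 were lower without Rag1-/- replicate 1 or Tcra-/- replicate 2 and 5 without Rag1-/- replicate 2. Dclk1, a kinase that marks tuft cells, was at 8.30, 8.58 and 8.30 against 15.4, 21.5 and 19.6 CPM (-1.16 ± 0.12, adjusted p = 7.82e-07), and Trpm5, their taste channel, at 4.92, 6.94 and 8.15 against 14.5, 21.3 and 15.6 CPM (-1.36 ± 0.18). Enteroendocrine genes gave 8 lower and 2 higher of 19. Chga, a granule protein of these cells, was at 26.0, 31.1 and 30.5 against 46.3, 51.3 and 49.9 CPM (-0.75 ± 0.14), the incretin gene Gip differed by -1.27 ± 0.14 and the neurotensin gene Nts by -1.01 ± 0.18. Gcg, the proglucagon gene, was at 43.3, 43.5 and 44.2 against 43.5, 43.3 and 32.1 CPM and was not called. Tac1, the substance P precursor of endocrine and nerve cells, rose instead, at 58.8, 68.9 and 62.9 against 9.57, 8.55 and 8.33 CPM (2.85 ± 0.14), and Ghrl, which encodes ghrelin, by 0.94 ± 0.21. Goblet cell genes were called higher in 4 and lower in 7 of 17. Zg16, a mucus lectin, was at 2139.9, 2378 and 2367 against 4515, 4237 and 4713 CPM (-0.97 ± 0.10), Clca1, a mucus protease, at 7.30, 12.02 and 10.2 against 4.85, 4.80 and 4.55 CPM (1.06 ± 0.18), and Muc13, a membrane mucin, rose by 1.24 ± 0.10. Of 19 Paneth cell genes, 1 (5.26%) was called higher and 3 (15.8%) lower, against 18.0% and 18.1% of all genes. With DESeq2 4 were called higher, 2 without Tcra-/- replicate 2 and 0 with only the 6 libraries fitted. Lyz1, their lysozyme, was at 8145, 8101 and 7286 against 8335, 6279 and 3471 CPM, with overlap and no call. The call in the rising direction was Pla2g2a, a bactericidal phospholipase (123, 134 and 103 against 37.1, 27.7 and 13.8 CPM, 2.19 ± 0.37), whose adjusted p was 0.012 with only the 6 libraries fitted.

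Cell cycle genes were called higher in 21 of 25 cases and lower in 1, with a median of 0.83 and sums of 1423 to 1504 CPM against 727 to 950.1 CPM. Ccnd1, the cyclin that starts the cycle, was at 252, 245 and 204 against 44.8, 51.4 and 40.5 CPM (2.36 ± 0.12, adjusted p = 1.98e-09). Mki67, present in dividing cells, was at 185, 180.2 and 201 against 123, 111 and 83.5 CPM (0.84 ± 0.13), and Plk1, a mitotic kinase, at 18.7, 17.8 and 17.2 against 7.48, 8.18 and 8.01 CPM (1.18 ± 0.11). All 3 were higher in every Rag1-/- mouse. Ccnd2, the call in the other direction, differed by -0.36 ± 0.08 and lost the call without Rag1-/- replicate 1 or Tcra-/- replicate 2. Stem cell and Wnt genes did not follow: 3 of 21 (14.3%) were called higher, against 18.0% of all genes, and 0 lower. Lgr5, the stem cell receptor, was at 11.8, 11.7 and 10.97 against 12.3, 11.04 and 8.29 CPM (adjusted p = 0.548) and Olfm4 at 242, 231 and 199.5 against 392, 314 and 138 CPM (adjusted p = 0.544), with overlap in both. The rises were Ephb2 (0.88 ± 0.11) and Ephb3 (1.15 ± 0.15), receptors that position crypt cells, and Cdca7 (0.65 ± 0.12).

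**Figure D4:**
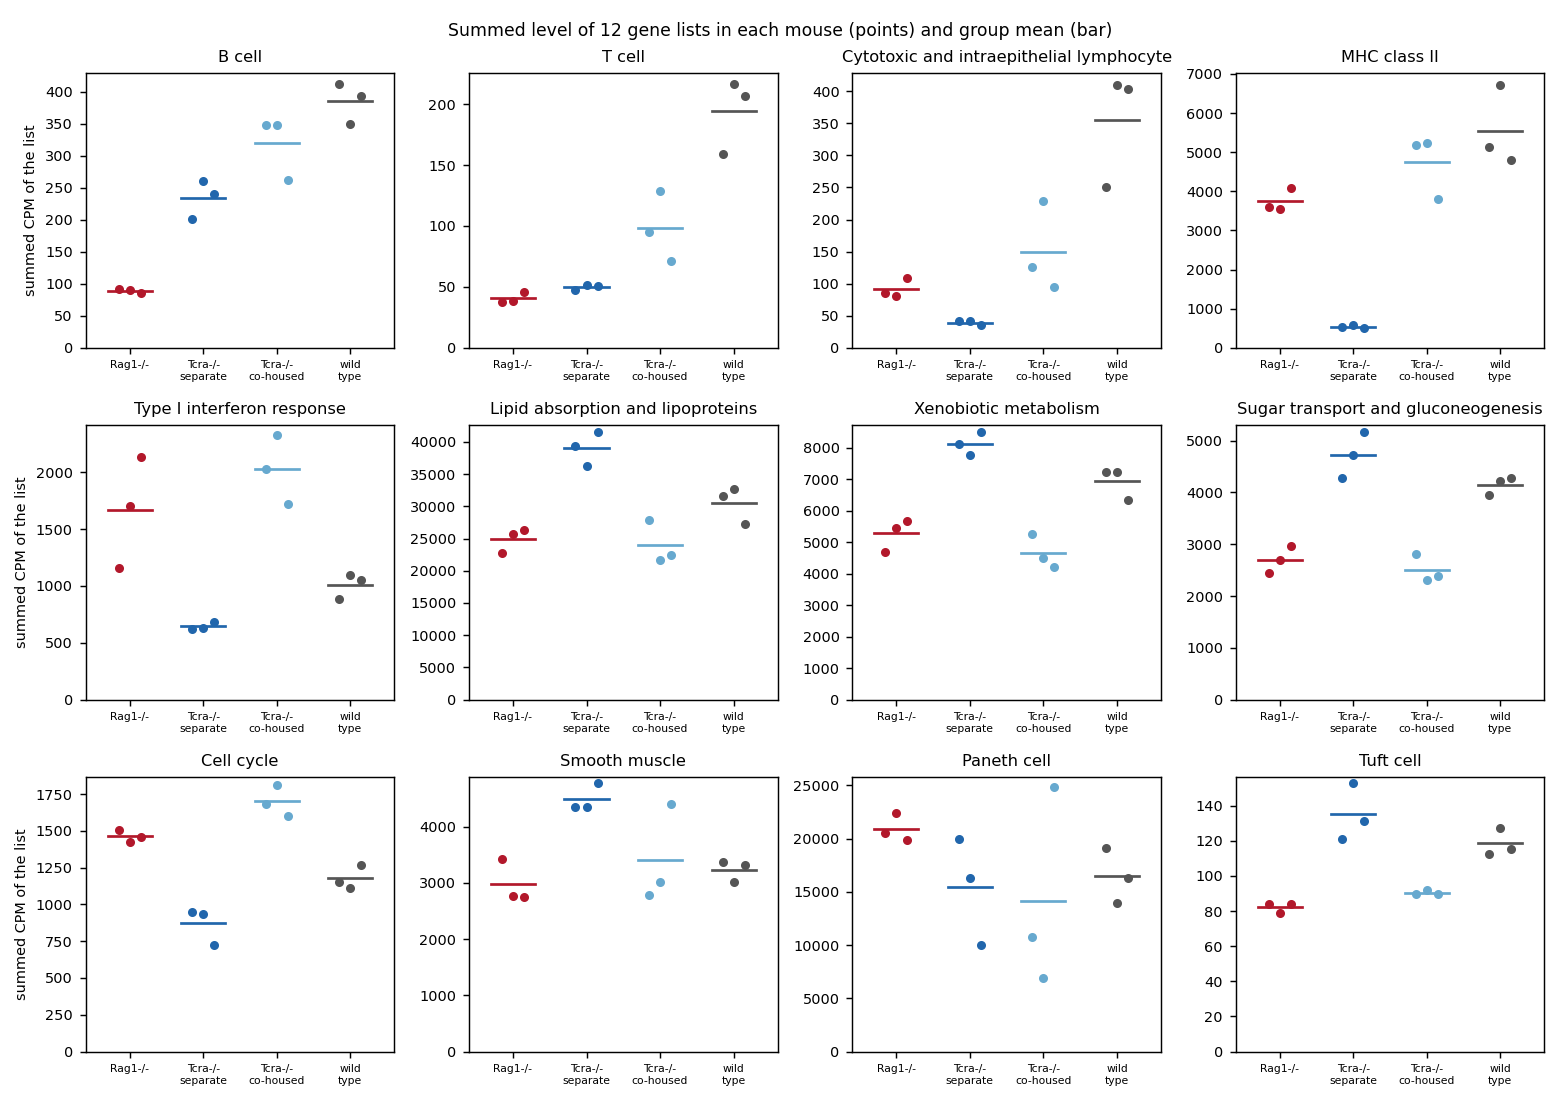
Summed CPM of the tested members of 12 gene lists, from 0, with 1 point per mouse and a bar at the group mean. The MHC class II sum is lowest in the separately housed Tcra-/- mice, the B cell sum lowest in the Rag1-/- mice, and the sums of lipid absorption, xenobiotic metabolism, sugar transport and smooth muscle are higher in the separately housed Tcra-/- than in the Rag1-/- mice.

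Most clock genes fell. Of 17, 11 were called lower and 2 higher (7 lower with only the 6 libraries fitted), and the time of day at which tissue was taken is not given. Cry2 was at 7.96, 6.78 and 9.35 against 28.2, 28.7 and 38.5 CPM (-1.98 ± 0.18) and Cry1, the other cryptochrome repressor of the clock, at 39.0, 43.5 and 31.3 against 22.5, 20.1 and 23.8 CPM (0.78 ± 0.15). Nfil3, a repressor that the clock drives and that lymphoid cells need, was at 31.1, 36.9 and 28.5 against 19.2, 13.7 and 17.6 CPM (0.93 ± 0.14, adjusted p = 0.000101), while Per3, a period gene, and Hlf, a clock output, differed by -1.65 ± 0.26 and -2.20 ± 0.31. Tight junction genes gave 4 calls higher (19.0%) and 6 lower (28.6%) of 21, against 18.0% and 18.1% of all genes (2 higher with library size alone). Cldn8, a sealing claudin, was at 1.49, 1.90 and 2.90 against 12.2, 11.6 and 10.7 CPM (-2.44 ± 0.24), and Cldn2, which forms a cation pore, at 256, 284 and 289 against 193, 192 and 154 CPM (0.62 ± 0.09). Of 4 butyrophilin-like genes, 1 was called higher and 1 lower. The former, Btn1a1, lost its call without Rag1-/- replicate 1 or Tcra-/- replicate 2 or 3, and with a minimum of 1 CPM in 3 libraries it was not tested. The latter, Btnl2, differed by -0.40 ± 0.09, and its call was lost without Rag1-/- replicate 1 or Tcra-/- replicate 3. Of 17 immediate early and heat shock genes, 3 (17.6%) were called higher and 2 (11.8%) lower, against 18.0% and 18.1% of all genes. The rises, all heat shock genes, were lost without Tcra-/- replicate 1 or 3, with 1 left without Rag1-/- replicate 1. The number lower was 4 with DESeq2 and with only the 6 libraries fitted, and 1 without any 1 of the Rag1-/- mice or without Tcra-/- replicate 1 or 3. Egr1, an immediate early factor, was at 8.21, 11.2 and 11.2 against 34.1, 39.7 and 32.8 CPM (-1.80 ± 0.20).

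Markers of tissue that a piece of gut wall can hold in different amounts were compared in the same way. Smooth muscle genes were called lower in 5 of 12 and higher in 0 (8 lower with library size alone, 10 with only the 6 libraries fitted, and 2 without Tcra-/- replicate 3 or 3 without Rag1-/- replicate 2 or 3), and their sum was 2741 to 3418 CPM in the Rag1-/- mice and 4344 to 4781 CPM in the Tcra-/- mice. Mylk, the myosin kinase of muscle, was at 619.8, 516 and 531 against 858, 868 and 979.7 CPM (-0.70 ± 0.11). Fibroblast genes were called lower in 2 of 12 and higher in 0. The number lower was 4 with DESeq2, 5 with only the 6 libraries fitted, and 1 with no filter or without any 1 of the mice. Nerve and glia genes were called lower in 3 and higher in 1 of 14. Library size alone gave 6 lower. There were 5 lower with DESeq2, with no filter, with a filter at 1 CPM in 3 libraries and with only the 6 libraries fitted. Without Rag1-/- replicate 2 or 3 or Tcra-/- replicate 3, 1 was lower. In the main fit the shares lower, 16.7% and 21.4%, were near the 18.1% of all genes, but they depend on these settings. Endothelial genes were called in 0 of 12 in either direction. Fat and pancreas genes were lower in 2 of 6, and in 1 without Rag1-/- replicate 1 or 2 or Tcra-/- replicate 1, with sums of 24.5 to 35.7 against 69.2 to 97.6 CPM, most of it the lipid droplet gene Cidec. Of 10 genes that differ along the gut, 6 were called lower and 1 higher, and the lower ones include Lct, Fabp1, Rbp2 and Cyp2b10 (-2.81 ± 0.48), which are highest in the upper small intestine. Lct, Fabp1, Rbp2 and Cyp2b10 are also members of the brush border, lipid, retinoid and xenobiotic lists, so their falls are already counted above. The part of these tissue and position differences in the falls of absorptive genes was not tested.

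The Rag1-/- mice were nearer to the co-housed than to the separately housed Tcra-/- mice in the epithelial genes set side by side here. Fut2 was at 299.7, 237 and 471 CPM in the co-housed mice, Reg3g at 32691, 29474 and 43143 CPM, Lct at 28.1, 9.76 and 5.47 CPM and Slc2a2 at 2.43, 0.412 and 0.743 CPM, and in all 4 genes the Rag1-/- and co-housed values overlapped. In the Rag1-/- against co-housed contrast 0 Reg, serum amyloid, brush border, sugar, cell cycle and tuft cell genes were called in either direction. Among the 459 genes called there were 17 of 19 B cell genes, 16 of 28 T cell genes and 7 of 25 cytotoxic genes, all lower in the Rag1-/- mice. Also lower were 7 of 29 chemokine genes, 5 of 19 group 3 innate lymphoid cell genes and 4 of 11 gamma delta T cell genes, with 0 higher. Of 13 genes of plasma cells and antibody transport, 6 were called lower and 1 higher. Outside the lymphocyte lists, 6 of 12 genes of lymphoid stroma and follicle epithelium, 4 of 11 MHC class II genes, 3 of 29 interferon gamma response genes, 3 of 12 oxidase genes and 2 of 26 glycan enzyme genes were called lower and 0 higher. The other lists had few calls or none. The xenobiotic, enteroendocrine, ion and gut position lists had 1 higher each, and the amino acid and nucleoside lists 1 higher and 1 lower each. Lower only were 2 of 17 immediate early and heat shock genes and 1 gene each of lipid absorption, fatty acid synthesis and retinoid metabolism. An effect called in one contrast and not in the other is not shown to differ between them, and that difference was not tested. The contrast of co-housed Tcra-/- with wild type mice shares no library with the present one, and 2940 genes (18.5%) were called in it. Of its 1482 rises, 1306 were also rises in the Rag1-/- mice, which is 88.1% of the former and 45.8% of the 2852 latter. Of its 1458 falls, 1188 were shared, 81.5% of these and 41.4% of the 2869 falls given here. In turn 24 rises and 15 falls of the present comparison were called in the opposite direction there.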

How the data were processed

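The values are raw read counts for each gene, whole numbers used as the authors deposited them, for 23284 genes, of which 3810 had no read. Per the submitters' processing notes, the tools were bcl2fastq, TopHat2 2.0.11, Bowtie2 2.2.2.0, featureCounts of Subread 1.4.5-p1 and DESeq2 1.12.3, on the mouse build mm9. The sources used here do not give the annotation or the strand and multiple-mapping settings. Genes passing edgeR's filterByExpr were scaled by TMM and fitted with edgeR 4.0.16 in R 4.3.3 (robust quasi-likelihood fit, 1 term per group, all 12 libraries, 8 residual degrees of freedom), with Benjamini-Hochberg adjustment over 15866 genes and a threshold of 0.01. The SE is the log2 fold change divided by the square root of the F statistic. The fit was tested on simulated data: of 50 genes each changed 1.5-, 2-, 4- and 8-fold in this comparison, 21, 37, 45 and 50 were called, with 1 false call among 15714 genes run. That simulation changed only 200 genes, as many up as down, with counts drawn from the kind of distribution the fit assumes. It had no shared cages, so it does not give the rate of false calls where as many genes differ as here. Named genes are the 12 largest rises and falls, up to 5 members of each list per direction with the smallest p, and a set of fixed genes. The members and lists were chosen with earlier results of these data known. No list was tested as a set, and some of the genes counted in the lists are not reported here by name. Alternatives were DESeq2 1.42.0, library size alone, other filters and thresholds, the 6 libraries only, and leaving out each mouse. Promoters are RefSeq sequences of GRCm38.p6, and no coordinate was carried between builds. Intervals on ratios are exact (Clopper-Pearson) and cover counting error only.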

Additional observations from a re-analysis of the deposited data

How the results depend on the processing

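The counts of 2852 higher and 2869 lower genes were 3310 and 3096 with DESeq2, 2868 and 2782 with no filter, 2663 and 2908 with a filter at 1 CPM in 3 libraries, 3082 and 2813 with only the 6 libraries fitted, and 3843 and 4067 at an adjusted p of 0.05. DESeq2 called 5707 of the 5721 genes. Library size alone gave 1709 higher and 4264 lower and moved the median of all genes from -0.04 to -0.20, and calls past 2-fold numbered 661 and 977. Leaving out 1 mouse at a time gave 2259 to 2530 higher and 2252 to 2552 lower. Of 321 named genes, 305 were called, 256 of them under every alternative run, 49 lost the call in at least 1, and 4 of the 16 not called gained one. No named gene changed direction where it was called in the main fit or in the alternative, and genes called in neither were not checked for this. No paired analysis was possible because the labels give the mice no number that is shared between groups. At these depths a gene with 0 reads in a group is bounded by a floor of 3 counts over its 3 libraries, and differences of genes with few reads moved most when single mice were left out.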

Other observations

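Some genes within 5 Mb of the targeted loci stood apart by genotype, a pattern chosen after the values were seen. Of 125 tested genes within 5 Mb of Dad1, the protein-coding gene next to the Tcra segments (chromosome 14, mm9, 54855160 to 54873604), 14 (11.2%) had all 6 Tcra-/- mice, of both housings, on one side of the other 6 mice, against 87 of all 15866 genes (0.548%). Pnp2, a purine nucleoside phosphorylase, was at 66.1, 68.0 and 71.8 CPM in the Rag1-/- mice, 8.43, 6.45 and 7.46 CPM in the separately housed and 12.7, 10.3 and 11.02 CPM in the co-housed Tcra-/- mice and 85.8, 103 and 90.3 CPM in wild type. The Tcra-/- mice of both kinds were thus several fold lower. Ccnb1ip1, a factor of meiotic recombination, was at 0, 0 and 0.0427, 1.89, 1.12 and 0.962, 4.43, 2.90 and 4.43 and 0.0450, 0.0453 and 0 CPM in the same order of groups, and Ndrg2 at 16.5, 16.3 and 14.8, 32.3, 33.0 and 36.2, 23.7, 26.9 and 25.8 and 15.05, 18.0 and 17.2 CPM. Both were higher in every Tcra-/- mouse than in any other mouse.

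Of 40 tested genes within 5 Mb of Rag2, the neighbour of Rag1 (chromosome 2, mm9, 101464905 to 101472685), 10 (25.0%, Rag1 among them) had the 3 Rag1-/- mice on one side of the other 9, against 1133 of all 15866 genes (7.14%). Prrg4, a transmembrane protein, was at 7.84, 11.6 and 7.21 CPM in the Rag1-/- mice, 0.461, 1.14 and 0.569 CPM in the separately housed and 4.14, 3.91 and 2.25 CPM in the co-housed Tcra-/- mice and 0.562, 0.771 and 1.32 CPM in wild type. Cd59a, an inhibitor of complement, was at 10.6, 7.37 and 7.81, 25.5, 25.2 and 24.3, 19.9, 18.8 and 25.0 and 21.9, 21.8 and 21.2 CPM in that order. The first was higher and the second lower in each Rag1-/- mouse than in any of the 9 others. Prrg4 did not follow genotype alone, as the co-housed Tcra-/- mice also lay above the separately housed ones. The cause of the pattern around either locus was not tested.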
